A study of Mus musculus with 12 samples.

Results

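The 9 genes described here act on cyclic AMP in T cells. *Ptgir*, *Ptger2* and *Ptger4* encode receptors for prostacyclin and prostaglandin E2, *Adora2a* encodes an adenosine receptor of the Gs-coupled type, and *Pde2a*, *Pde3b*, *Pde4b*, *Pde4d* and *Pde7a* encode phosphodiesterases. They were picked by symbol from a table of 49585 genes, where they take up 10 entries because *Pde2a* is listed under 2 identifiers. All 9 genes passed the filter on low counts, which kept 13118 genes. *Ptgir* was chosen because it was among the strongest helper genes in these same samples, so its values are given as a description without a test. The genes were measured by RNA-seq in lymph node (LN) T cells sorted by surface markers as naive cells (TCRβ+ and, by the methods of the study, CD44−), with 4 groups of 3 samples each. The B6 groups were CD4+ and CD8+ T cells from C57BL/6 mice. The CD8.1 and CD8.2 groups came from CD8Dual (also named 8in4) mice, whose *Cd4* loci were changed to make CD8 proteins (the CD8α.1 form with CD8β) and no CD4, while their unchanged *Cd8* loci make the CD8α.2 form with CD8β. All mice were labelled male and 6 to 10 weeks old, and RNA was made from pooled sorted cells. The labels give replicate numbers but do not say that replicates were separate animals, so *P* values measure the spread between these samples, which may be technical. The comparisons ask how the receptor and phosphodiesterase genes differ between helper lineage (B6 CD4 and CD8.1) and cytotoxic lineage (B6 CD8 and CD8.2) T cells, and how they differ between the strains within a lineage. Within the helper lineage the strains also differ in co-receptor (CD8 in CD8.1 cells, CD4 in B6 CD4 cells), and within the cytotoxic lineage both use CD8 from the *Cd8* loci. The helper lineage groups differ in T cell receptor specificity as well. By the study, CD8.1 cells are specific for MHC class I, while receptors working with CD4 engage MHC class II.

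Prostacyclin binds the IP receptor (*Ptgir*), and prostaglandin E2 binds EP2 (*Ptger2*) and EP4 (*Ptger4*). These receptors and the adenosine receptor of *Adora2a* couple to the stimulatory G protein, which turns on adenylyl cyclases that make cyclic AMP. Phosphodiesterases break cyclic AMP down. Cyclic AMP activates protein kinase A and Epac and, through CREB proteins, transcription, and a high level of it is known to restrain T cell receptor signaling. Of the phosphodiesterases, PDE4 and PDE7 enzymes are specific for cyclic AMP, PDE3B is inhibited by cyclic GMP, and PDE2A is stimulated by cyclic GMP.

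Expression is given as CPM, read counts scaled to a library total by the TMM method. Sample totals were 18667474 to 37110502 counts, at which 3 counts, taken as the smallest readable value, were worth 0.0875 to 0.167 CPM (counting error only, as PCR copies are not independent molecules). A gene was called higher or lower at an adjusted *P* under 0.05 by the quasi-likelihood test of edgeR, adjusted by Benjamini-Hochberg over all 13118 genes. Among the co-receptor genes, *Cd4* was at 908 to 1004 CPM in B6 CD4 samples, 47.1 to 51.5 CPM in CD8.1 samples and at most 1.79 CPM in the others. The naive cell gene *Ccr7* was detected in every group. The summed level of 11 regulatory T cell markers was 457 to 599 CPM in B6 CD4 and 961 to 1114 CPM in CD8.1 samples, against 133 to 136 CPM in B6 CD8 and 129 to 142 CPM in CD8.2 samples. *Foxp3*, their defining gene, was at 32.6 to 44.6 CPM in B6 CD4 samples and 102 to 168 CPM in CD8.1 samples. These are bulk samples, in which fewer cells of a type and less RNA per cell cannot be told apart.

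Promoter sequences are shown for the receptor gene that was near absent from cytotoxic lineage cells (*Ptgir*), for the receptor genes *Ptger4* and *Ptger2*, which were high in CD8.1 cells, and for the phosphodiesterase gene with a match to the cyclic AMP response element. Each is the 250 bases before a transcription start, 5′ to 3′ on the strand of the gene, from RefSeq on GRCm38.p6. They lie at chr7:16906240-16906489 on the plus strand (*Ptgir*), chr15:5244188-5244437 on the minus strand (*Ptger4*), chr14:44987861-44988110 on the plus strand (*Ptger2*) and chr4:102421305-102421554 on the plus strand (*Pde4b*, 1 of its 4 RefSeq starts).
Ptgir promoter: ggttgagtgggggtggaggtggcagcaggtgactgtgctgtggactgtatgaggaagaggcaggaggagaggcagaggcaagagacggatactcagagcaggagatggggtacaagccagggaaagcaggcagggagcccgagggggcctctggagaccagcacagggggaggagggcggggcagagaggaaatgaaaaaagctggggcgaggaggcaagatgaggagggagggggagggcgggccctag
Ptger4 promoter: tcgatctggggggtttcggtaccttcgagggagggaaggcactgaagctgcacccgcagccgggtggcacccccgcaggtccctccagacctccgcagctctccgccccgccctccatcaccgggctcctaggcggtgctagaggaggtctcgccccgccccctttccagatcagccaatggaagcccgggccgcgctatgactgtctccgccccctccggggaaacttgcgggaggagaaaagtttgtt
Ptger2 promoter: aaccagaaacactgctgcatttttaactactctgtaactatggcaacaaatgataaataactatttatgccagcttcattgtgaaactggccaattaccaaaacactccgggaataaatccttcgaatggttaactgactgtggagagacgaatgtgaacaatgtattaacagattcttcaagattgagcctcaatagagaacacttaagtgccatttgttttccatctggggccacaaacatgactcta
Pde4b promoter: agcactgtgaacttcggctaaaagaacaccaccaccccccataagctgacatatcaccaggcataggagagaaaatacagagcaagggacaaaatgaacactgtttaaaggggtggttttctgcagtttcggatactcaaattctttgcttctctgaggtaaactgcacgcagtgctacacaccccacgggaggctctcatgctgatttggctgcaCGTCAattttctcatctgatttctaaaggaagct
Capitals mark the element's core TGACG, read on both strands, so that the match in *Pde4b* stands in its reverse form. The core was found in 17.8% of 32851 RefSeq promoters of this length and its full form TGACGTCA, which contains the core, in 1.55%. The Runx motif (TGTGGT or TGCGGT, both strands) was in 18.6% of them and in none of the 4 sequences shown. Other starts of these genes were also searched and are not shown. Of these, Runx matches stood before *Pde2a* starts (2 at chr7:101450766-101451015 and 1 at chr7:101451002-101451251). The *Pde4b* sequence at chr4:102587308-102587557 held 1. The *Pde4b* sequence shown was picked for its match, so that match is no finding about the gene. The *Ptgir*, *Ptger4* and *Ptger2* sequences held no match to any of these motifs. RefSeq promoters were matched for 6 of the 9 genes, the others being *Adora2a*, *Pde3b* and *Pde7a*. A match or its absence describes these letters alone.

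In B6 CD4 cells the phosphodiesterase genes held both the highest and the lowest level. Levels of different genes are compared per kilobase of exon (CPM per kb, GENCODE M21). In B6 CD4 samples *Pde3b* was highest at 13.8 ± 1.62 CPM per kb (SD, n = 3), ahead of *Pde4b* at 8.02 ± 0.607. *Ptger4* at 5.19 ± 0.843, *Adora2a* at 5.06 ± 0.770 and *Pde7a* at 4.97 ± 0.622 CPM per kb came next and did not differ from each other by more than their SDs. *Pde4d* at 2.97 ± 0.138 and *Ptgir* at 2.20 ± 0.483 CPM per kb followed. *Ptger2* was at 0.627 ± 0.0600 and *Pde2a* at 0.0528 ± 0.0349 CPM per kb. In B6 CD8 samples the order of the upper genes was *Pde3b* at 17.6 ± 0.878, *Pde7a* at 13.9 ± 1.08 and *Pde4b* at 6.52 ± 0.490 CPM per kb, and *Ptgir* moved to the bottom at 0.00819 ± 0.0142. In CD8.1 samples *Pde3b* at 9.50 ± 1.12, *Ptger4* at 8.79 ± 0.446 and *Pde4b* at 8.08 ± 0.713 CPM per kb lay close together. Among the 4 receptor genes, *Ptger4* or *Adora2a* had the highest mean CPM per kb in every group and *Ptger2* or *Ptgir* the lowest.

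**Figure D1:**
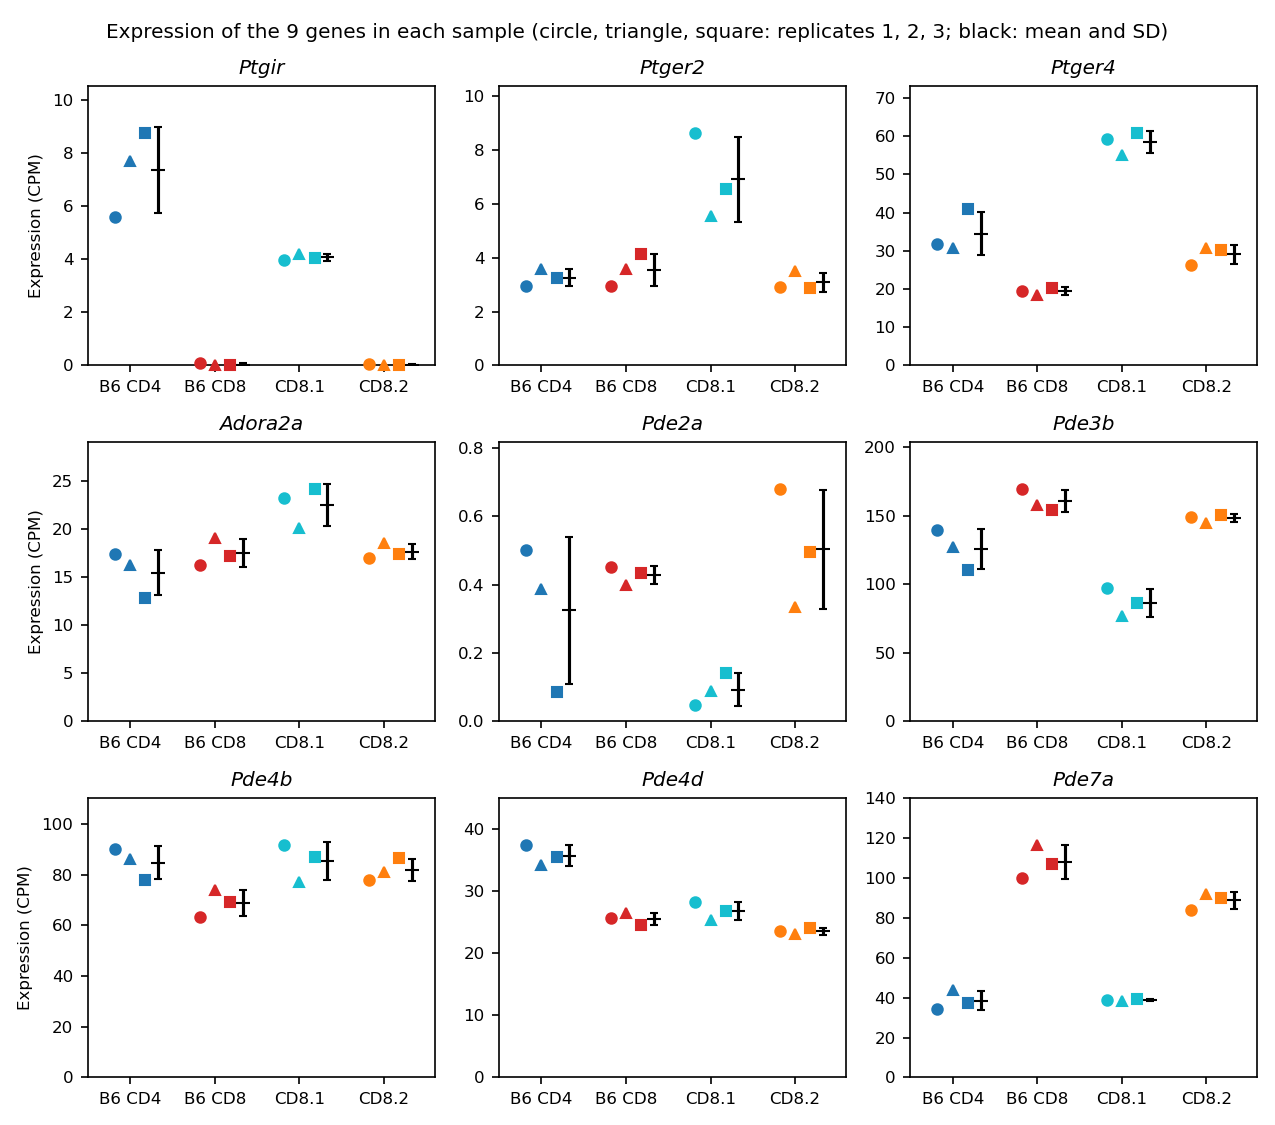
Expression (CPM, linear axes from 0) of the 9 genes in the 12 samples, by group; symbols are samples and the black bar is the mean with its SD (n = 3). *Ptgir* is near 0 in all B6 CD8 and CD8.2 samples, *Ptger4* and *Ptger2* are highest in CD8.1, *Pde7a* splits the groups by lineage, and *Pde2a* is under 1 CPM in every sample.

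*Ptgir* (ENSMUSG00000043017.9, GRCm38 chromosome 7, 16906490 to 16910905, plus strand), the prostacyclin receptor gene, was read in helper lineage cells and was near the detection limit in cytotoxic lineage cells. Its level was 5.59, 7.67 and 8.76 CPM in B6 CD4 replicates 1 to 3, from 123, 178 and 206 counts. It was 3.96, 4.20 and 4.04 CPM in the CD8.1 samples, from 83, 95 and 85 counts. B6 CD8 samples held 2, 0 and 0 counts and CD8.2 samples 1, 0 and 0 counts. Every helper lineage sample was thus above every cytotoxic lineage sample, and the B6 CD4 samples were all above the CD8.1 samples. The summed normalized counts of B6 CD4 were 268 times those of B6 CD8 (exact 95% interval of the count ratio 73.9 to 2220), and those of CD8.1 were 308 times those of CD8.2 (54.9 to 12200). The width of these intervals comes from 2 counts and 1 count, each in replicate 1 of its group. B6 CD4 stood at 1.81 times CD8.1 (1.56 to 2.11), the only receptor gene of the 4 whose mean in CD8.1 samples was below that in B6 CD4 samples. All 3 intervals cover counting error alone, and since the gene was chosen from these values no test is attached. No other gene's annotated exons overlap its own.

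The genes with the profile most like that of *Ptgir* over the 12 samples were *Cd40lg*, *Ly6c1*, *St8sia6*, *Myo10* and *Zbtb7b*. The measure was the root mean square difference of log2 CPM after each gene was centred on its own mean. It was 0.547, 0.572, 0.598, 0.709 and 0.748 for these genes against a median of 2.92 over all tested genes. Since *Ptgir* was chosen as a strong helper gene in these same samples, its nearest genes had to be helper genes too and are no separate support. In samples without a count its log2 CPM is set by the prior count alone. *Cd40lg* encodes the ligand of CD40, and *Zbtb7b* encodes ThPOK, the helper lineage factor. *Cd40lg* was at 111 ± 3.77 CPM in B6 CD4 and 89.0 ± 4.66 CPM in CD8.1 samples (SD, n = 3), against 0.879 ± 0.178 CPM in B6 CD8 and 1.37 ± 0.161 CPM in CD8.2 samples. *Zbtb7b* was at 159 ± 5.11 and 154 ± 31.8 CPM in the helper lineage groups and at 0.931 ± 0.249 and 1.91 ± 0.267 CPM in B6 CD8 and CD8.2. *Myo10* was at 27.9 ± 8.73 CPM in B6 CD4 and 10.9 ± 2.43 CPM in CD8.1 samples. Like *Ptgir*, *Cd40lg* and *Ly6c1*, it was higher in every B6 CD4 sample than in every CD8.1 sample. *St8sia6* and *Zbtb7b* also had higher means in B6 CD4, but with overlapping samples. For the other genes the nearest profiles were *Mbnl3* and *Lclat1* (*Ptger2*), *Mansc1* and *Ephx1* (*Ptger4*), *Rps12-ps9* and *Slc25a32* (*Adora2a*), *Cdk5rap2* and *Golim4* (*Pde2a*), *Arl4c* and *Ttc7b* (*Pde3b*), *Senp7* and *Lin54* (*Pde4b*), *Rasgrp1* and *E330009J07Rik* (*Pde4d*) and *Rras2* and *Sorl1* (*Pde7a*). None of these genes is on the list of cyclic AMP pathway genes.

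**Figure D2:**
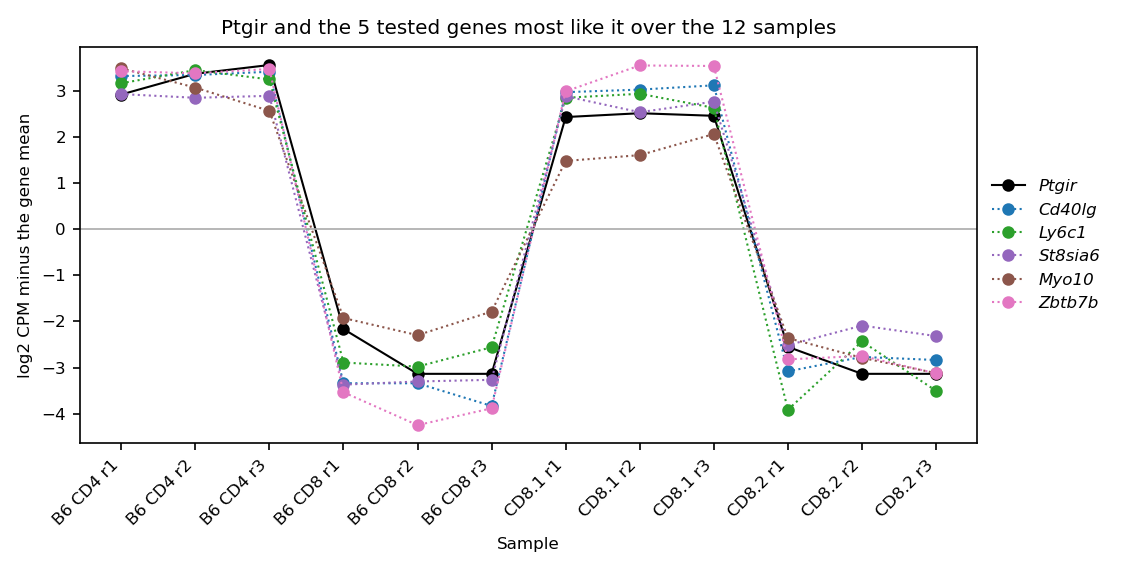
Log2 CPM (prior count 2) of *Ptgir* and the 5 tested genes with the most similar profile, each minus its mean over the 12 samples; the x axis lists the samples (r1 to r3, replicates) and lines join points of 1 gene. All 6 genes are above their mean in the 6 helper lineage samples and below it in the 6 cytotoxic lineage samples, and *Ptgir*, *Cd40lg*, *Ly6c1* and *Myo10* lie lower in every CD8.1 sample than in every B6 CD4 sample.

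*Ptger4* (ENSMUSG00000039942.15, chromosome 15, 5206661 to 5244187, minus strand), the EP4 receptor gene, was higher in helper than in cytotoxic lineage cells of both strains, and higher in CD8Dual than in B6 cells of both lineages. It was at 31.8, 30.8 and 41.0 CPM in B6 CD4 replicates 1 to 3 and at 19.5, 18.4 and 20.4 CPM in B6 CD8. In CD8Dual mice the CD8.1 samples held 59.2, 55.2 and 60.9 CPM and the CD8.2 samples 26.3, 30.7 and 30.2 CPM. No 2 groups overlapped, although the lowest B6 CD4 and the highest CD8.2 sample nearly touched. The log2 difference between B6 CD4 and B6 CD8 was 0.83 (standard error (SE) 0.109, edgeR adjusted *P* = 3.59e-05), and that between CD8.1 and CD8.2 was 1.01 (SE 0.107, edgeR adjusted *P* = 4.45e-06). CD8.1 exceeded B6 CD4 by 0.76 (SE 0.106, edgeR adjusted *P* = 0.00048) and CD8.2 exceeded B6 CD8 by 0.58 on the log2 scale (SE 0.110, edgeR adjusted *P* = 0.00482). The lineage difference itself was 0.18 larger in CD8Dual mice (SE 0.152, 95% interval −0.15 to 0.50), which was not called (edgeR adjusted *P* = 0.66). Of its 6648 exon bases, 1097 are shared with *Ttc33* or the pseudogene *Gm15937* on the other strand, and whether counting used strand is not given in the sources used here. *Ttc33* was at 28.2 ± 1.26, 28.3 ± 1.82, 32.2 ± 2.94 and 34.3 ± 1.27 CPM in the groups in the order above, and *Gm15937* held 0 counts.

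*Ptger2* (ENSMUSG00000037759.5, chromosome 14, 44988195 to 45003820, plus strand), the EP2 receptor gene, stood apart in CD8.1 cells. It was at 2.96, 3.58 and 3.23 CPM in B6 CD4 replicates 1 to 3 and at 2.95, 3.56 and 4.14 CPM in B6 CD8. In CD8Dual mice the CD8.1 samples held 8.64, 5.53 and 6.55 CPM and the CD8.2 samples 2.90, 3.50 and 2.86 CPM. The other 3 groups overlapped each other, and each CD8.1 sample was above all of their samples. CD8.1 exceeded CD8.2 by 1.17 (SE 0.198, edgeR adjusted *P* = 0.000406) and B6 CD4 by 1.08 on the log2 scale (SE 0.197, edgeR adjusted *P* = 0.00316). B6 CD4 against B6 CD8 gave −0.12 (SE 0.203, 95% interval −0.55 to 0.31) and CD8.2 against B6 CD8 −0.21 (SE 0.203, −0.64 to 0.22), neither of them called. The interaction, the lineage difference in CD8Dual minus that in B6 mice, was 1.29 (SE 0.283, edgeR adjusted *P* = 0.0259). That call was lost when any of 6 samples was left out (B6 CD4 replicate 1 or 3, B6 CD8 replicate 2 or 3, CD8.2 replicate 1 or 3; edgeR adjusted *P* = 0.0552 to 0.102), while the value ranged from 1.08 to 1.43. The summed level of regulatory T cell markers was 961 to 1114 CPM in CD8.1 samples against 457 to 599 CPM in B6 CD4, and its part in this result was not tested. Of the 5193 exon bases of *Ptger2*, 246 are shared with the antisense genes *Gm17173* and *Gm49364*. *Gm17173* was at 1.01 ± 0.125 CPM in CD8.1 samples and at 0.391 to 0.522 CPM on average in the other groups.

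*Adora2a* (ENSMUSG00000020178.5, chromosome 10, 75316877 to 75334784, plus strand), the adenosine receptor gene, followed *Ptger2* in being highest in CD8.1 cells, with a smaller difference. It was at 17.4, 16.2 and 12.8 CPM in B6 CD4 replicates 1 to 3 and at 16.2, 19.1 and 17.2 CPM in B6 CD8. The CD8.1 samples held 23.3, 20.1 and 24.2 CPM, and the CD8.2 samples 17.0, 18.6 and 17.4 CPM. The CD8.1 samples were above all other samples, and the other 3 groups overlapped. CD8.1 exceeded B6 CD4 by 0.54 (SE 0.118, edgeR adjusted *P* = 0.00912) and CD8.2 by 0.35 on the log2 scale (SE 0.117, edgeR adjusted *P* = 0.0348). The call against CD8.2 was kept only without B6 CD4 replicate 1, B6 CD4 replicate 3 or CD8.1 replicate 2, and was lost without any other single sample (edgeR adjusted *P* = 0.0515 to 0.127). The call against B6 CD4 was lost when only these 2 groups were fitted (edgeR adjusted *P* = 0.0547). B6 CD4 against B6 CD8 gave −0.18 (SE 0.119, −0.43 to 0.07), CD8.2 against B6 CD8 gave 0.01 (SE 0.118, −0.24 to 0.26), and the interaction was 0.53 (SE 0.167, edgeR adjusted *P* = 0.158). None of these was called. The other adenosine receptor genes on the pathway list, *Adora1*, *Adora2b* and *Adora3*, were too low to be tested, with group means of at most 0.0466 CPM.

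*Pde7a* (ENSMUSG00000069094.12, chromosome 3, 19223108 to 19311322, minus strand) had the largest lineage difference of the phosphodiesterase genes in B6 mice, in favour of cytotoxic lineage cells. It was at 34.4, 43.8 and 37.3 CPM in B6 CD4 replicates 1 to 3 and at 100.1, 117 and 107 CPM in B6 CD8. In CD8Dual mice the CD8.1 samples held 38.6, 38.2 and 39.5 CPM and the CD8.2 samples 84.2, 92.2 and 90.0 CPM. The helper lineage groups overlapped, and both were far below the cytotoxic lineage groups, of which CD8.2 was below B6 CD8 in every sample. The log2 difference was −1.49 between B6 CD4 and B6 CD8 (SE 0.0919, edgeR adjusted *P* = 5.99e-09) and −1.20 between CD8.1 and CD8.2 (SE 0.0917, edgeR adjusted *P* = 1.03e-07). CD8.1 against B6 CD4 gave 0.01 (SE 0.0924, 95% interval −0.19 to 0.20), not called. CD8.2 against B6 CD8 gave −0.28 (SE 0.0889, edgeR adjusted *P* = 0.0645), which came under 0.05 without B6 CD4 replicate 1, B6 CD4 replicate 2 or CD8.1 replicate 1 (0.0382 to 0.0438), when only these 2 groups were fitted (0.0136) and in the Wald test of DESeq2 (0.0264). The interaction was 0.29 (SE 0.128, edgeR adjusted *P* = 0.342).

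*Pde3b* (ENSMUSG00000030671.9, chromosome 7, 114415281 to 114539251, plus strand) was also lower in helper lineage cells, and lowest in CD8.1. It was at 139, 127 and 110 CPM in B6 CD4 replicates 1 to 3 and at 170, 158 and 154 CPM in B6 CD8. The CD8.1 samples held 97.0, 76.6 and 86.1 CPM, and the CD8.2 samples 149, 145 and 151 CPM. No 2 groups overlapped. The log2 difference was −0.36 between B6 CD4 and B6 CD8 (SE 0.0951, edgeR adjusted *P* = 0.012), −0.78 between CD8.1 and CD8.2 (SE 0.0960, edgeR adjusted *P* = 2.17e-05) and −0.54 between CD8.1 and B6 CD4 (SE 0.0959, edgeR adjusted *P* = 0.00286). The B6 call was lost without B6 CD8 replicate 1 or B6 CD4 replicate 3 (edgeR adjusted *P* = 0.0766 to 0.0839). CD8.2 against B6 CD8 gave −0.12 (SE 0.0948, −0.32 to 0.09), not called. The interaction of −0.42 (SE 0.135) was not called (edgeR adjusted *P* = 0.176) but was called without CD8.1 replicate 1 (0.0138) and without the filter on low counts (0.0411).

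The PDE4 genes leaned the other way in B6 mice. *Pde4d* (ENSMUSG00000021699.17, chromosome 13, 108449948 to 109953461, plus strand) was at 37.5, 34.2 and 35.4 CPM in B6 CD4 replicates 1 to 3 and at 25.6, 26.5 and 24.5 CPM in B6 CD8. In CD8Dual mice the CD8.1 samples held 28.3, 25.3 and 26.8 CPM and the CD8.2 samples 23.5, 23.0 and 24.0 CPM. B6 CD4 samples were above all others, and the CD8.1 samples overlapped those of B6 CD8. *Pde4d* was higher in B6 CD4 than in B6 CD8 by 0.48 (SE 0.0779, edgeR adjusted *P* = 0.000257) and lower by a log2 difference of −0.41 in CD8.1 against B6 CD4 (SE 0.0781, edgeR adjusted *P* = 0.00387). CD8.1 against CD8.2 gave 0.19 (SE 0.0790, edgeR adjusted *P* = 0.09), CD8.2 against B6 CD8 gave −0.12 (SE 0.0788, −0.29 to 0.05), and the interaction was −0.29 (SE 0.111, edgeR adjusted *P* = 0.26), none of them called.

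*Pde4b* (ENSMUSG00000028525.16, chromosome 4, 102087543 to 102607259, plus strand) was at 90.3, 86.1 and 77.7 CPM in B6 CD4 replicates 1 to 3 and at 63.5, 73.8 and 69.1 CPM in B6 CD8. The CD8.1 samples held 91.9, 77.1 and 86.9 CPM, and the CD8.2 samples 77.9, 81.1 and 86.7 CPM. B6 CD8 was below the other groups in every sample, and the other 3 groups overlapped. B6 CD4 exceeded B6 CD8 by 0.30 on the log2 scale (SE 0.0885, edgeR adjusted *P* = 0.0223), a call lost without B6 CD4 replicate 1 or 2 or B6 CD8 replicate 1 or 3 (0.0698 to 0.124). CD8.1 against CD8.2 gave 0.06 (SE 0.0883, 95% interval −0.13 to 0.25) and CD8.1 against B6 CD4 gave 0.01 (SE 0.0883, −0.18 to 0.20), neither called. CD8.2 against B6 CD8 gave 0.25 (SE 0.0885, edgeR adjusted *P* = 0.0957), which was called without CD8.1 replicate 1 (0.0466) and when only these 2 groups were fitted (0.0264). The interaction was −0.24 (SE 0.125, edgeR adjusted *P* = 0.428).

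*Pde2a* had few counts in all samples. Its 2 identifiers cover the same stretch of chromosome 7 on the plus strand. ENSMUSG00000110195.1 (101421691 to 101512827) held all the counts, and ENSMUSG00000030653.17, which GENCODE M21 names *Gm45837* and which shares 3955 of the 6149 exon bases of the former, held 0 in every sample, so the split between them is uncertain. The counts were 11, 9 and 2 in B6 CD4 replicates 1 to 3, 11, 11 and 9 in B6 CD8, 1, 2 and 3 in CD8.1 and 16, 6 and 17 in CD8.2. The CD8.1 counts were at or under 3, the smallest readable value, and the gene passed the filter through the other groups. Differences that involve CD8.1 are thus uncertain in size, and a call on them describes these counts alone. Each CD8.1 sample was below every B6 CD8 and CD8.2 sample, while B6 CD4 replicate 3 lay within the CD8.1 range. The summed normalized counts of CD8.2 were 5.54 times those of CD8.1 (exact 95% interval 2.33 to 16.0), and those of B6 CD4 were 3.45 times those of CD8.1 (1.36 to 10.4). Those of B6 CD8 were 1.33 times those of B6 CD4 (0.746 to 2.41). These intervals cover counting error alone and leave out the spread between replicates. The log2 difference between CD8.1 and CD8.2 was −2.39 (SE 0.639, edgeR adjusted *P* = 0.0112), a call lost without CD8.2 replicate 1 (0.0503). That between CD8.1 and B6 CD4 was −1.74 (SE 0.687, edgeR adjusted *P* = 0.111), which was called without B6 CD4 replicate 3 (0.027). B6 CD4 against B6 CD8 (−0.40, SE 0.524), CD8.2 against B6 CD8 (0.25, SE 0.487) and the interaction (−1.99, SE 0.845, edgeR adjusted *P* = 0.323) were not called.

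**Figure D3:**
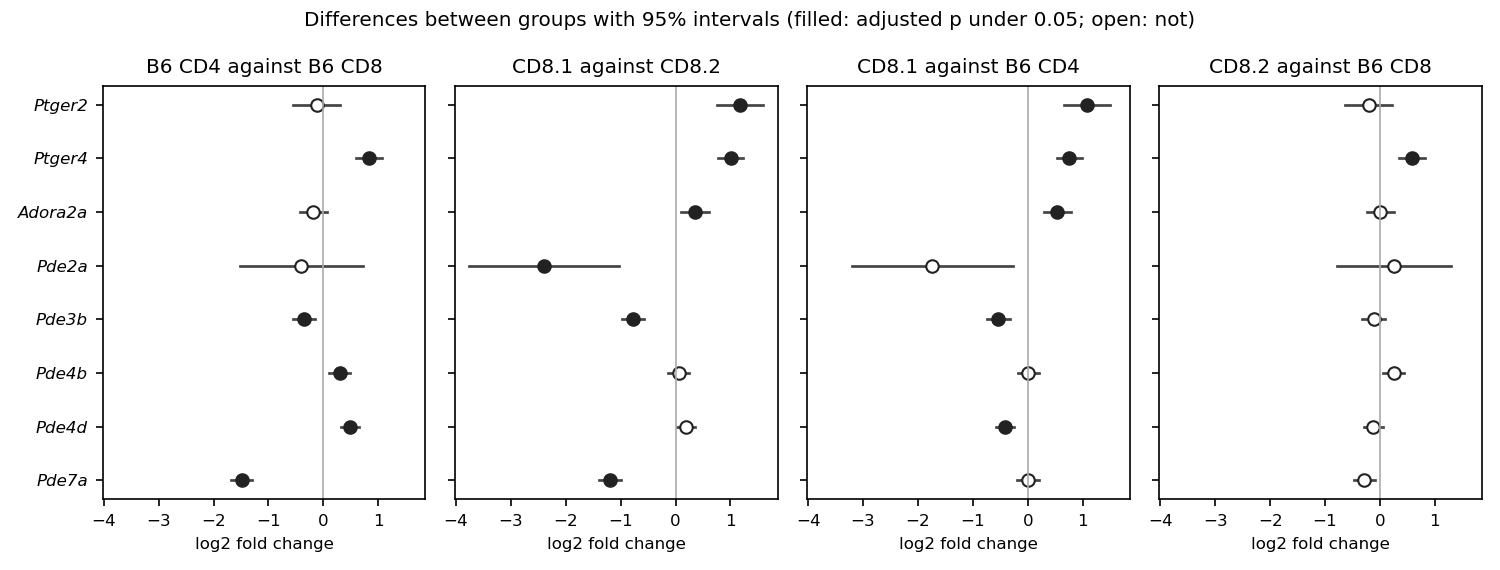
Log2 fold changes (points) with 95% intervals (bars) of the 8 genes other than *Ptgir* in 4 comparisons, on a shared axis; filled points have an edgeR adjusted *P* under 0.05 and open points do not. *Ptger4* is above 0 and filled in all 4 panels, *Pde7a* is the lowest filled point between the B6 lineages, and in CD8.2 against B6 CD8 *Ptger4* is the only filled point.

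Counted over the 8 genes other than *Ptgir*, B6 CD4 against B6 CD8 had 3 higher (*Ptger4*, *Pde4b*, *Pde4d*), 2 lower (*Pde3b*, *Pde7a*) and 3 not called. Over all tested genes 23.1% were called in this comparison, 11.4% higher and 11.7% lower. The median log2 difference of the 8 genes was −0.15 and that of all genes −0.0011. CD8.1 against CD8.2 had 3 higher (*Ptger2*, *Ptger4*, *Adora2a*), 3 lower (*Pde2a*, *Pde3b*, *Pde7a*) and 2 not called, against 28.7% of all genes, 14.9% higher and 13.8% lower. The medians were 0.12 for the 8 genes and −0.00465 for all genes. In this comparison the 3 genes higher in CD8.1 encode receptors and the 3 lower ones encode phosphodiesterases. Of these calls, that on *Adora2a* was lost in 9 of 12 fits with a sample left out. That on *Pde2a*, with CD8.1 counts at or under the smallest readable value, was lost without CD8.2 replicate 1. The other genes on the pathway list did not divide in this way. In the role of other receptors coupled to the stimulatory G protein 3 genes were higher, *Vipr1* and the genes of the accessory proteins, *Ramp1* and *Ramp3*. In that role 3 receptor genes were lower, *Gpr65*, *Gpr174* and *Hrh2* (named after their values were seen). The calls on *Gpr174* and *Hrh2* were lost in 3 and 8 of 12 fits with a sample left out. Of 6 other phosphodiesterases tested 1 was lower and 5 were not called. Of the 11 regulatory T cell markers 10 were called higher in B6 CD4 against B6 CD8 and 11 in CD8.1 against CD8.2, and their part in the calls on the 8 genes was not tested.

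CD8.1 against B6 CD4 had 3 higher (*Ptger2*, *Ptger4*, *Adora2a*), 2 lower (*Pde3b*, *Pde4d*) and 3 not called, where 12.8% of all genes were called, 6.94% higher and 5.82% lower. It shares the CD8.1 samples with the previous comparison, so the calls on *Ptger2*, *Ptger4*, *Adora2a* and *Pde3b* in both are not independent. The medians were 0.00875 for the 8 genes and 0.0025 for all genes. Among the 11 regulatory T cell markers 10 were called higher here, as were 6 of 7 activated or memory T cell markers (summed level 571 to 625 CPM in CD8.1 against 373 to 406 CPM in B6 CD4), and the part of such cells in the 5 calls was not tested. A sort for CD44− cells is meant to leave activated and memory cells out, while *Cd44* transcripts averaged 72.0 ± 5.13 CPM in the CD8.1 samples and 35.1 ± 2.16 CPM in those of B6 CD4. Of 8 myeloid and NK cell markers 5 were called higher, namely *Lyz2*, *Csf1r*, *Cd68*, *Fcer1g* and *Cst3* at 1.24-fold to 4.46-fold, and the 8 summed to 100.8 to 110.1 CPM in CD8.1 against 66.5 to 82.4 CPM in B6 CD4. Of 6 B cell markers 2 were called higher (*Cd79a* and *Cd79b*), with sums of 99.0 to 152 CPM against 72.4 to 88.0 CPM. The part of these cells was not tested either.

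CD8.2 against B6 CD8 had 1 higher gene (*Ptger4*) and 7 not called, where 7.94% of all genes were called, 3.29% higher and 4.66% lower. The medians were −0.0545 for the 8 genes and −0.00355 for all genes. Of the 11 regulatory T cell markers 2 were called higher, *Foxp3* at 0.333 ± 0.178 CPM in B6 CD8 and 1.24 ± 0.371 CPM in CD8.2 samples (3.88-fold, edgeR adjusted *P* = 0.019) and *Ctla4* at 1.16 ± 0.133 and 4.04 ± 0.524 CPM (3.45-fold, edgeR adjusted *P* = 0.000763). *Gpr83* was called lower, from 10.2 ± 0.340 to 1.65 ± 0.292 CPM, and the 11 markers summed to 133 to 136 CPM in B6 CD8 and 129 to 142 CPM in CD8.2. Of 6 B cell markers 2 were called higher, with sums of 61.7 to 76.0 CPM in B6 CD8 and 71.1 to 124.8 CPM in CD8.2. Of 8 myeloid and NK cell markers 1 was called higher, and of 7 activated or memory T cell markers 2 were called lower. The part of any of these cells in the *Ptger4* call was not tested. In the interaction *Ptger2* was higher and 7 genes were not called, where 1.87% of all genes were called, 1.58% higher and 0.290% lower. Only this test compares the lineage difference between the strains, and a call in 1 strain without a call in the other is not a difference between them.

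Of 111 other genes on a list of the cyclic AMP pathway, 67 could be tested. B6 CD4 against B6 CD8 had 12 of them higher and 15 lower (over all tested genes 11.4% and 11.7%), and CD8.1 against CD8.2 had 16 higher and 13 lower (14.9% and 13.8%). CD8.1 against B6 CD4 had 3 higher and 7 lower (6.94% and 5.82%), and CD8.2 against B6 CD8 had 3 higher and 4 lower (3.29% and 4.66%). The interaction had 2 called, both higher (1.58%). The median log2 differences of the 67 genes in these 5 tests were 0.032, 0.11, 0.0491, −0.0392 and 0.0655.

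On the ligand side, prostanoid synthesis and removal had 4 of 13 genes tested (*Ptges2*, *Ptges3*, *Hpgds* and *Abcc4*, named after their values were seen), which were not called between the lineages of either strain and had edgeR's unadjusted *P* of 0.0515 or more. *Ptgs1* and *Ptgs2*, the cyclooxygenase genes, had group means of at most 0.0625 CPM. Among the 6 other prostanoid receptors 1 was tested, *Tbxa2r* (thromboxane receptor, named after its values were seen), which was lower in B6 CD4 than in B6 CD8 by a log2 difference of −0.34 (SE 0.0882, edgeR adjusted *P* = 0.00945) and lower in CD8.1, against CD8.2, by −0.43 (SE 0.0881, edgeR adjusted *P* = 0.00202). The B6 call was lost without B6 CD8 replicate 1 or B6 CD4 replicate 2 (edgeR adjusted *P* = 0.0564 to 0.0585). *Tbxa2r* couples to other G proteins than the stimulatory type.

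Adenosine supply and removal held all 8 of its genes in the test. *Dpp4* (CD26), listed in this role, was lower in B6 CD4 (73.6 ± 3.11 CPM) than in B6 CD8 (198 ± 4.18 CPM) and, in CD8Dual mice, lower in CD8.1 (83.0 ± 9.62 CPM) than CD8.2 cells (177 ± 4.55 CPM). *Adk*, adenosine kinase, was higher in both helper lineage groups, by 0.92 (SE 0.120, edgeR adjusted *P* = 3.29e-05) in B6 and 1.26 (SE 0.120, edgeR adjusted *P* = 1.45e-06) in CD8Dual mice. *Entpd1* (CD39) and *Nt5e* (CD73), which turn extracellular ATP into adenosine in sequence, were the 2 list genes called in the interaction. The interaction call on *Entpd1* was lost without any of 8 samples (B6 CD4 replicate 1 or 3, B6 CD8 replicate 3, CD8.1 replicate 2 or 3, any CD8.2 replicate; edgeR adjusted *P* = 0.061 to 0.0874), and that on *Nt5e* without B6 CD8 replicate 2 (0.052). *Entpd1* was at 1.76 ± 0.419, 2.55 ± 0.796, 8.14 ± 1.49 and 4.14 ± 0.384 CPM in the B6 CD4, B6 CD8, then CD8.1 and then CD8.2 samples, and *Nt5e* at 24.9 ± 1.98, 41.9 ± 6.55, 41.9 ± 6.85 and 37.1 ± 2.18 CPM. Against B6 CD4, CD8.1 was higher by 2.21 in *Entpd1* (SE 0.238, edgeR adjusted *P* = 5.41e-05) and by 0.75 in *Nt5e* (SE 0.128, edgeR adjusted *P* = 0.00202). Both genes are also known to be expressed by regulatory T cells, whose markers were higher in the same samples, and the part of such cells was not tested.

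Of the other receptors coupled to the stimulatory G protein, with the accessory genes *Ramp1* and *Ramp3* counted among them, 8 of 11 genes were tested. They had 4 higher and 2 lower in B6 CD4, and 3 higher and 3 lower in CD8.1 against CD8.2. *Vipr1*, a receptor of vasoactive intestinal peptide, was at 136 ± 17.2 CPM in B6 CD4 and 76.2 ± 6.14 CPM in B6 CD8 (log2 difference 0.83, SE 0.109, edgeR adjusted *P* = 3.36e-05). CD8.1 samples held 101 ± 7.20 CPM and CD8.2 samples 74.1 ± 9.46 CPM (0.44, SE 0.109, edgeR adjusted *P* = 0.00695). *Ramp1* and *Ramp3*, accessory proteins of calcitonin family receptors, were higher in the helper lineage of both strains, *Ramp3* by 1.60 (SE 0.200) and 1.77 (SE 0.201) and *Ramp1* by 0.65 (SE 0.102) and 0.51 (SE 0.102) on the log2 scale. Among G protein alpha subunits *Gnai3*, of the inhibitory type, had group means of 227 to 279 CPM and was not called in any of the 5 tests.

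The 5 adenylyl cyclase genes tested went in opposite directions. *Adcy9* was at 1.5 ± 0.277 CPM in B6 CD4 and 0.144 ± 0.0958 CPM in B6 CD8, with a log2 difference of 3.28 (SE 0.473, edgeR adjusted *P* = 8.53e-05). It was at 1.29 ± 0.517 and 0.138 ± 0.0331 CPM in CD8.1 and CD8.2 (3.13, SE 0.481, edgeR adjusted *P* = 0.000177). B6 CD8 samples held 2 to 7 counts of *Adcy9* and CD8.2 samples 2 to 6, near the smallest readable value, so the size of both differences is uncertain. *Adcy6* was higher in the helper lineage by 1.47 (SE 0.129) and 1.24 (SE 0.132). *Adcy7*, with group means of 117 to 230 CPM, was lower in the helper lineage by a log2 difference of −0.65 (SE 0.0897) and −0.74 (SE 0.0901), and *Adcy3* by −0.82 (SE 0.107) and −0.72 (SE 0.108). All 4 genes were called in both strains and none in the interaction.

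Of the other phosphodiesterases 6 of 19 were tested, with log2 differences of −0.25 to 0.29 between the B6 lineages, none called and with edgeR's unadjusted *P* of 0.115 or more. Between CD8.1 and CD8.2 1 was called, *Pde8a*, at 7.77 ± 0.104 and 12.5 ± 1.39 CPM (log2 difference −0.69, SE 0.147, edgeR adjusted *P* = 0.00239). Of protein kinase A, its inhibitors and Epac 10 of 12 genes were tested, with 1 higher and 4 lower in B6 CD4 and 2 higher and 3 lower in CD8.1. *Rapgef4* (Epac2) was lower in the helper lineage by −0.46 (SE 0.0864) and −0.67 (SE 0.0883), and *Pkib*, an inhibitor of protein kinase A, was higher by 1.04 (SE 0.302) and 1.43 (SE 0.304), the first of them a call lost without B6 CD8 replicate 1 or 2 or B6 CD4 replicate 3 (edgeR adjusted *P* = 0.054 to 0.0742) and without the filter on low counts (0.0703). Of the 8 A-kinase anchoring genes tested *Akap1* was lower in the helper lineage of both strains (−0.92, SE 0.159, and −1.02, SE 0.159). *Akap7* was higher in CD8.1 than CD8.2 cells (1.14, SE 0.369) and *Akap9* lower (−0.77, SE 0.250). These calls were lost without CD8.1 replicate 1 or 2 or CD8.2 replicate 1, that on *Akap7* also without CD8.2 replicate 2 (edgeR adjusted *P* = 0.0689 to 0.115 for *Akap7* and 0.0868 to 0.163 for *Akap9*). That on *Akap9* was also lost in the Wald test of DESeq2 and when only these 2 groups were fitted (adjusted *P* of up to 0.0769). *Akap13*, at 184 to 345 CPM on average, was not called between the lineages of either strain. It was called lower in CD8.1 than in B6 CD4 (−0.61, SE 0.148, edgeR adjusted *P* = 0.0148) and in CD8.2 than in B6 CD8 (−0.52, SE 0.147, edgeR adjusted *P* = 0.041). These 2 calls were lost in 2 and 7 of 12 fits with a sample left out. *Akap9* was also lower in CD8.1 than in B6 CD4 (−1.14, SE 0.249, edgeR adjusted *P* = 0.009), a call kept in all 12 fits.

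Among CREB factors *Crem*, which is itself induced by cyclic AMP, was higher in the helper lineage by 0.46 (SE 0.140, edgeR adjusted *P* = 0.0269) and 0.63 (SE 0.140, edgeR adjusted *P* = 0.00339), 1 of the 2 genes, of 7 tested, that were called in each strain (the other was *Atf1*, named after its values were seen, at 0.25 and 0.33). The B6 calls were lost without any of 4 samples for *Crem* (B6 CD8 replicate 1 or 2, B6 CD4 replicate 2 or 3; edgeR adjusted *P* = 0.0571 to 0.108) and any of 5 for *Atf1* (any B6 CD4 replicate, B6 CD8 replicate 2 or 3; 0.051 to 0.109; 0.0785 without the filter on low counts). Of 6 target genes tested *Nr4a1* was higher in the helper lineage by 2.15 (SE 0.212, edgeR adjusted *P* = 1.64e-06) and 2.23 (SE 0.212, edgeR adjusted *P* = 1.35e-06), and *Nr4a3* by 1.15 (SE 0.140) and 1.09 (SE 0.141). *Nr4a2* was lower in B6 CD4 than in B6 CD8 (−1.18, SE 0.362, edgeR adjusted *P* = 0.0271), a call lost without the same 5 samples as that on *Atf1* (0.0511 to 0.105) and without the filter (0.0712). The *Nr4a* genes are also known to be induced by T cell receptor signaling.

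**Figure D4:**
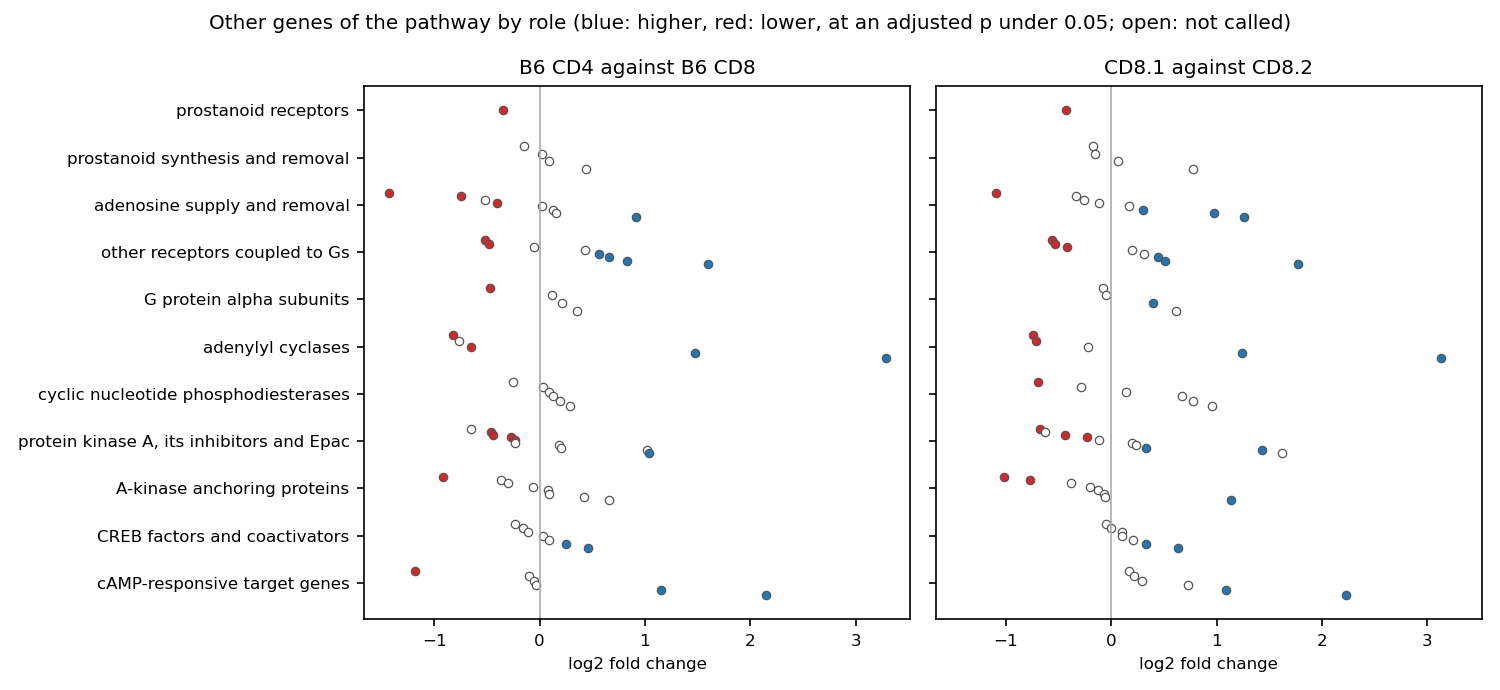
Log2 fold changes of the 67 other pathway genes tested, by role (rows), between the lineages of B6 (left) and CD8Dual mice (right); each point is a gene, blue and red ones are higher and lower at an edgeR adjusted *P* under 0.05 and open ones are not called. *Adcy9* at 3.28 and 3.13 and *Nr4a1* at 2.15 and 2.23 lie farthest right, and *Dpp4* at −1.43 and −1.10 lies farthest left in both panels. *Adcy9* had few counts in the cytotoxic lineage samples (2 to 7 in B6 CD8 and 2 to 6 in CD8.2).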

How the data were processed

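LN T cells of 4 groups with 3 samples each were analysed. The authors aligned read pairs to mm10 with STAR and counted with RSEM, and the deposited values are raw whole-number counts per gene without normalization. Tool versions, annotation release and use of strand are not given in the sources used here. All 12 columns were matched to samples by name. Counts were fitted with edgeR 4.0.16 in R 4.3.3 (glmQLFit, glmQLFTest, TMM normalization, filterByExpr over the 4 groups) in 1 model of all 12 samples without covariates, and *P* values were adjusted by Benjamini-Hochberg over 13118 genes. SEs are the log2 fold change over the square root of F. Count ratios have exact conditional binomial intervals. Sample totals were 18667474 to 37110502 counts, and the biological coefficient of variation was 11.2%. Replicates differed by a chi-square per gene of 8.21 to 79.5, so none were repeats of 1 library. The largest values, 52.9 and 79.5, were those of CD8.2 replicate 3 with its 2 fellow replicates, against at most 30.4 in the other pairs. That sample was the deepest, and its top gene was *Gm42418* (3.14% of counts), where every other sample had *Eef1a1*. The fit was tested on simulated data with 200 genes changed 2-fold among 12884, of which 75.5% were called with 8 false calls (B6 CD4 against B6 CD8) and 73.5% with 14 (CD8.1 against CD8.2).

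The 9 genes, the pathway and marker lists and the tests were chosen with earlier results of these data known. From the pathway list the text names, in each role, up to 4 genes with the smallest *P* among those called in either strain's lineage comparison with at least 1.5-fold change, and up to 1 uncalled gene over 100 CPM. Alternatives were DESeq2 1.42.0 (its size factors or its Wald test), all genes with any count in place of the filter, the definition of a DEG in the study (over 5-fold, unadjusted *P* under 0.05), only the groups compared, the replicate block and each sample left out in turn. The replicate numbers come from the labels. Deviations from the group means of B6 CD4 and CD8 samples with the same number correlated over 0.1 in 3 of 3 pairs (mean 0.174), which pairs them by the rule used here. The other group pairs had means of 0.0685 (CD8.1 with CD8.2, 1 of 3 pairs over 0.1), -0.113 (B6 CD4 with CD8.1) and -0.0461 (B6 CD8 with CD8.2) and share a number alone. The result of 1 marker gene is not reported here. Plots were made in Python 3.11.15 (matplotlib 3.10.9).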

Additional observations from a re-analysis of the deposited data

Results flagged for a closer look

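Over the 8 genes other than *Ptgir* and the 67 other pathway genes tested, 3 were called in the interaction, the test of the lineage difference between the strains. Over all tested genes 1.87% were called in it, 1.58% higher and 0.29% lower. In all 3 genes CD8.1 was also called higher than B6 CD4. For *Ptger2* the interaction was 1.29 (SE 0.283, edgeR adjusted *P* = 0.0259), a call lost without any of 6 of the 12 samples (0.0552 to 0.102). In *Entpd1* it was 1.5 (SE 0.333, edgeR adjusted *P* = 0.0287), with B6 CD4 against B6 CD8 at -0.52 and CD8.1 against CD8.2 at 0.97, and the call was lost without any of 8 samples (0.061 to 0.0874). In *Nt5e* it was 0.92 (SE 0.179, edgeR adjusted *P* = 0.0109), with -0.75 and 0.17, and the call was lost without B6 CD8 replicate 2 (0.052). For *Nt5e* the group that stood apart was B6 CD4, with a mean of 24.95 CPM against 37.12 to 41.89 CPM in the other groups. Of 11 regulatory T cell markers 10 were called higher in CD8.1 against B6 CD4, and their part in these differences was not tested.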

How the results depend on the processing

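Counts below are of genes called in B6 CD4 against B6 CD8, CD8.1 against CD8.2, CD8.1 against B6 CD4, CD8.2 against B6 CD8 and the interaction, in this order. Leaving out each sample in turn gave 3 to 5, 4 to 6, 5 to 6, 1 to 3 and 0 to 2 of the 8 genes, 20 to 32, 24 to 36, 5 to 16, 0 to 15 and 1 to 9 other pathway genes, and 2418 to 3748, 2632 to 5013, 765 to 2958, 431 to 1913 and 165 to 1356 of all genes. The highest counts of all genes were those without CD8.1 replicate 1, and the lowest those without B6 CD8 replicate 2, CD8.2 replicate 3, B6 CD4 replicate 1, B6 CD8 replicate 2 and CD8.2 replicate 3. The cause was not tested. By the definition of a DEG in the study 0, 1, 0, 0 and 0 of the 8 genes, 1, 1, 0, 0 and 0 other pathway genes and 431, 435, 80, 76 and 152 of all genes were called, since it asks for more than 5-fold. The 1 gene is *Pde2a*, whose fold rests on CD8.1 counts of 1 to 3. With the replicate block 5, 6, 5, 1 and 1 of the 8 genes and 3194, 4101, 1501, 882 and 330 of all genes were called, and the 1 count that moved by over 1.5 times was that of pathway genes in CD8.2 against B6 CD8 (4, against 7 without the block), and no call on any of the 8 genes changed. With DESeq2's Wald test CD8.2 against B6 CD8 had 2 of the 8 genes and 14 pathway genes, and the interaction 410 of all genes. Without the filter CD8.2 against B6 CD8 had 14 pathway genes and 1593 of all genes, and the interaction 2 of the 8 genes and 620 of all genes. Fits of only the groups compared gave 5 pathway genes and 674 of all genes for CD8.1 against B6 CD4, and 3 of the 8 genes, 20 pathway genes and 2515 of all genes for CD8.2 against B6 CD8, where fewer samples give the spread. No log2 fold change that was called turned its direction under these settings. *Ptgir* has no fold for CD8.2 against B6 CD8 or the interaction, since both groups are at or under 3 counts. Depth limits *Ptgir* in the cytotoxic lineage and *Pde2a* everywhere, and other changes of PDE2A transcripts were not detectable at this depth.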
